A study of Mus musculus with 6 samples.

Results

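The matrix metalloproteinases (MMPs) and their tissue inhibitors (TIMPs) were examined as transcripts in RNA-seq of whole mouse retinas after optic nerve crush (ONC). The genes were Mmp2, Mmp3, Mmp9, Mmp12, Mmp14, Mmp15, Mmp24, Timp1, Timp2 and Timp3, chosen by symbol and not by their values, and they made up 10 of the 35485 genes in the count tables. All mice were C57BL/6 wild type animals of 12 weeks, male by the study's methods. In the ONC group, called NC in the sample labels, the optic nerve was crushed for 10 s at 2 mm behind the globe, and in the sham group it was exposed but not crushed. Retinas were taken 2 days after surgery. Each group held 3 samples, and each sample pooled RNA of 6 retinas, so that 18 retinas stood behind each group and the spread between samples is a spread between pools of animals. RNA of the whole retina mixes all its cell types, so a change in the number of cells of a type and a change in the RNA per cell cannot be told apart in any value below.

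MMPs are zinc-dependent endopeptidases that cut collagens, elastin, laminin and other matrix proteins, and also release or inactivate growth factors, cytokines and receptors at the cell surface. They are made as inactive proenzymes, and TIMPs bind the active site of the mature enzymes. In the retina, glia, vascular cells, pigment epithelium and infiltrating leukocytes are known sources of MMPs, and MMP activity has been linked to breakdown of the blood-retinal barrier and to loss of ganglion cells after nerve injury. The tables hold transcripts only, not proenzyme, active enzyme or inhibitor protein.

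Exon reads summed to between 17343945 and 18349331 in the sham samples and to between 20019818 and 20358008 in the ONC samples, so that at an equal level an ONC sample carries more exon reads of a gene. Photoreceptor markers summed to an RPKM of 17620 to 19950 in the 6 samples, and 5 of 10 ganglion cell markers fell (Rbpms, Sncg, Nefh, Pou4f1 and Pou4f2, edgeR adjusted p under 0.1 with a fold change above 1.5). Nefl, Nefm and Thy1 were lower by less than this threshold, at log2 fold changes of -0.53, -0.45 and -0.22. Slc17a6 of the same list was higher (0.26, edgeR adjusted p = 0.0525) and Isl1 was at -0.02 (edgeR adjusted p = 0.916). RPKM relates the exon reads to the exon length in kilobases and to the sample's reads on genes, and it was used to compare levels between genes. Changes were tested on TMM-scaled exon reads by the quasi-likelihood test of edgeR, with Benjamini-Hochberg adjustment over 13670 genes, and a gene was called changed at an adjusted p under 0.1 with a fold change above 1.5 in either direction. By this rule 1.66% of the genes were called, with 0.827% higher and 0.834% lower in ONC. The RPKM scale placed the median gene 0.13 higher in ONC on the log2 scale, and the TMM scale placed it at 0.01. Sham replicate 1 stood apart from the other sham samples: among the 113 genes called higher in ONC, it was the highest sham sample for 74, and its median position lay 13.6% of the way from the other sham samples to the ONC mean. These genes were picked by the same contrast, so the position is a description. Values without it are given where it moved a call or a level described here.

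Of the 10 genes, 9 passed the filter, a group mean RPKM of more than 0.3 in sham or ONC, and 8 of these passed it in sham already, Timp1 being the one that passed through its ONC mean. Mmp12 rose and Mmp9 fell. These were 2 of 9 genes called, against 1.66% of all genes. The other 7 did not pass the test, and the median log2 fold change of the 9 genes was -0.05 against 0.01 over all genes tested. On the TMM scale the groups did not overlap for 3 of 9 genes (Mmp12, Mmp9 and Mmp14), which is to be read beside 21.8% of all genes.

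**Figure D1:**
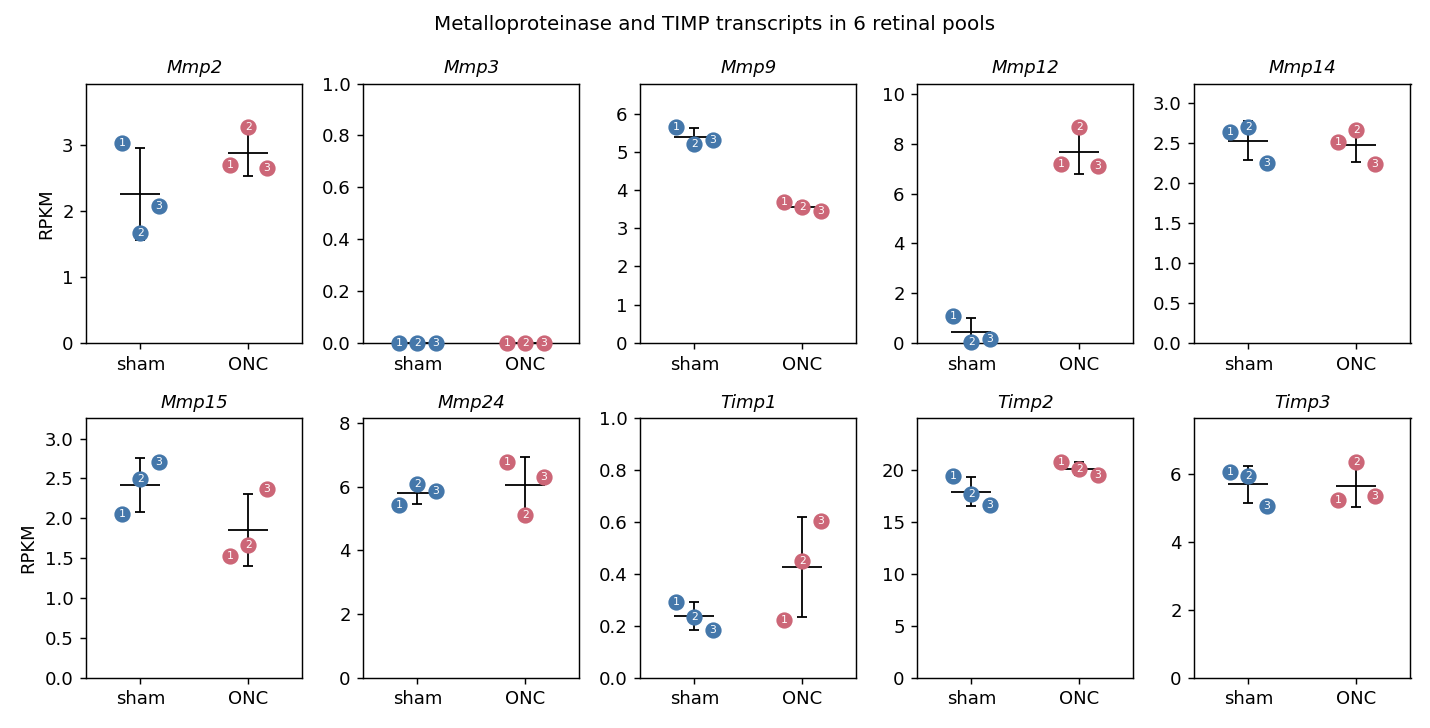
RPKM of the 10 genes in each of the 3 sham (blue) and 3 ONC (red) samples, one panel per gene with its own linear axis from 0. The number in each point is the replicate, the long bar is the group mean and the whiskers are 1 SD. The ONC samples lie above all sham samples for Mmp12 (7.12 to 8.68 against 0.046 to 1.09) and for Timp2, whose groups overlap after TMM scaling, and below them for Mmp9 (3.45 to 3.68 against 5.20 to 5.65).

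Mmp12, the macrophage elastase, cuts elastin and many other matrix proteins and is best known from macrophages. Its gene lies on chromosome 9 at 7347374 to 7360461 (GRCm38 positions, as in the files) and has 10 exons. The sham samples held 90, 4 and 14 exon reads and the ONC samples 657, 779 and 666. The RPKM was 1.085, 0.046 and 0.159 in sham and 7.197, 8.678 and 7.118 in ONC. Every ONC sample was above every sham sample, and sham replicate 1 was far above the other sham samples while still below all of ONC. The mean RPKM went from 0.430 ± 0.570 (SD, n = 3) to 7.66 ± 0.879 (SD, n = 3). The fitted log2 fold change was 4.06 (SE 0.41), a 16.7-fold rise with a 95% interval of 9.19 to 30.3 (edgeR's quasi-likelihood test, Benjamini-Hochberg adjusted p = 2.73e-06). The interval and p rest on a spread moderated over all genes tested. The adjusted p was 0.00985 with the DESeq2 Wald test and 0.0468 with the per-gene test on RPKM. With limma it was 0.0607 on log2(RPKM + 0.1) and 0.0004 on log2(RPKM + 1). Without sham replicate 1 the log2 fold change was 6.05, a 66.1-fold rise, which lies outside that interval. This sample thus sets the size of the rise but not its call. By p the gene ranked 29 among all genes tested, and by log2 fold change it ranked 9.

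The Mmp12 reads were spliced. Between 69.2% and 71.1% of the exon reads crossed an exon junction in the ONC samples, and 66.7% did so in sham replicate 1. Intron reads of Mmp12 numbered 19, 24 and 28 in the ONC samples, or 2.81% to 4.03% of the gene's reads, and 0 in each sham sample. Scaled to the sample's gene reads, the intron reads were higher in 3 of 3 ONC samples, and the exact permutation test (two-sided) gave p = 0.1, the smallest value that 3 samples against 3 allow. With 4 to 90 exon reads in sham, an intron share as low as that of ONC was not detectable there at this depth, since 0 reads allow up to 3.

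Mmp12 lies in a run of 10 Mmp genes between 7272514 and 7699416 of chromosome 9. None of the other 9 had more than 3 exon reads in any sample, and 5 of these had 0 in all 6 samples. Mmp8, the neutrophil collagenase, had 0 reads in each sham sample and 3, 2 and 0 in ONC. Mmp13, a collagenase that cuts fibrillar collagen, had 0, 0 and 3 reads in sham and 0, 1 and 0 in ONC. Of this cluster, Mmp12 was thus the gene detected above the limit of a few reads.

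Mmp3, or stromelysin-1, degrades proteoglycans, laminin and fibronectin and activates other proMMPs. It belongs to the same run, at 7445822 to 7455975. The reads numbered 0 in all 6 samples. A count of 0 allows up to 3 reads, which corresponds to an RPKM of 0.0642 to 0.0725 depending on the sample, and this limit covers counting error only. No fold change was computed.

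The starts of these members of the same run, Mmp12 that rose and Mmp3 that was not detected, are shown because their upstream sequences carry the same letters at nearly the same place. The lines give 250 bases before the start on the + strand, from the RefSeq promoter table of GRCm38.p6, and capitals mark TGAGTCA. The search was for TGAGTCA or its reverse complement TGACTCA, the core letters bound by AP-1 (Fos and Jun) proteins, and thus covered both strands.
Mmp12 chr9:7347124-7347373: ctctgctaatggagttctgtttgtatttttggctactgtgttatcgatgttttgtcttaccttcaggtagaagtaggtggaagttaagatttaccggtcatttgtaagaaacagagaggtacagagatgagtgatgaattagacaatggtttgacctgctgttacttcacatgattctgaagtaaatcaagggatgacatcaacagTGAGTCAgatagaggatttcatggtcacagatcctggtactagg
Mmp3 chr9:7445572-7445821: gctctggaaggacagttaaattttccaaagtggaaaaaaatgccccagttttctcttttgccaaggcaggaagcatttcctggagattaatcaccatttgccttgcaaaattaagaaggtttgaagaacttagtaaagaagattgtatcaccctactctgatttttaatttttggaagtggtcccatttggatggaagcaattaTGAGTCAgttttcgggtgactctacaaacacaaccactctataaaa
The match starts 44 bases before the start in Mmp12 and 46 bases before it in Mmp3. Of all 32851 promoters in the table, 4.46% held these letters within the same 250 bases. Promoters of 8 of the 10 genes matched by symbol, and the letters were found in Mmp12 and Mmp3. Mmp2 and Mmp9 had no matched promoter, so the letters were not searched in them. The promoter of another RefSeq start of Mmp12, at 7344147 to 7344396, lacked them, as did the promoters of Mmp14, Mmp15, Mmp24, Timp1, Timp2 and Timp3. A match is a description of the letters and not of binding, and Mmp12 and Mmp3 share it while differing in reads.

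Mmp9, gelatinase B, digests denatured collagen and type IV collagen of basement membranes and is made by neutrophils, macrophages, glia and endothelium. Its gene lies on chromosome 2 at 164948251 to 164955846. The exon reads were 408, 391 and 408 in sham and 292, 278 and 281 in ONC. The RPKM was 5.654, 5.200 and 5.310 in sham and 3.676, 3.559 and 3.451 in ONC. All ONC samples were lower than all sham samples, and the samples within each group were close together. The mean fell from 5.39 ± 0.237 (SD, n = 3) to 3.56 ± 0.113 (SD, n = 3). The log2 fold change was -0.72 (SE 0.12, 95% interval -0.97 to -0.47), so that sham was 1.65-fold above ONC (edgeR's quasi-likelihood test, Benjamini-Hochberg adjusted p = 0.000918). Between 38.7% and 51.2% of its exon reads crossed a junction, and at most 1.76% of the gene's reads were on introns. With limma on log2(RPKM + 0.1) the log2 fold change was -0.58 and on log2(RPKM + 1) it was -0.49, both short of the fold change threshold, while the direction held in all 17 alternatives.

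Mmp2, gelatinase A, is the other gelatinase, made constitutively by mesenchymal cells and glia, and is activated at the cell surface by Mmp14 together with Timp2. Its gene lies on chromosome 8 at 92827328 to 92853420. The exon reads were 212, 121 and 155 in sham and 208, 248 and 209 in ONC. In RPKM, sham replicate 1 lay among the ONC samples and the other sham samples were below all of them, so that the groups overlapped. The mean RPKM was 2.26 ± 0.702 (SD, n = 3) in sham and 2.88 ± 0.348 (SD, n = 3) in ONC. The log2 fold change of 0.23 (SE 0.19) did not pass the test (edgeR adjusted p = 0.589), and its 95% interval of -0.17 to 0.63 includes a rise of 1.5-fold. Without sham replicate 1 the log2 fold change was 0.46 (edgeR adjusted p = 0.264), and without sham replicate 2 it was 0.033 (edgeR adjusted p = 0.957). Introns took 47.8% to 60.1% of the gene's reads, by far the highest share among the 10 genes, and only 5.79% to 17.3% of exon reads crossed a junction. The intron reads were 194, 182 and 148 in sham and 214, 246 and 267 in ONC. Scaled to the gene reads of the sample (RPM) they were 7.36 ± 1.21 (SD, n = 3) in sham and 9.55 ± 0.964 (SD, n = 3) in ONC, with no overlap between groups and p = 0.1 in the exact permutation test, again the smallest possible value. Over all 22033 genes with intron reads, 14.3% had groups that did not overlap, with 3.80% higher and 10.4% lower in ONC.

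None of the membrane-type enzymes passed the test. Mmp14, or MT1-MMP, cuts fibrillar collagen at the cell surface and activates proMmp2, and lies on chromosome 14 at 54431604 to 54441258. Its exon reads were 157, 168 and 143 in sham and 165, 172 and 151 in ONC. The RPKM of the groups overlapped, at 2.53 ± 0.242 and 2.47 ± 0.213 (SD, n = 3 each). After TMM scaling each ONC sample was slightly below each sham sample, with a log2 fold change of -0.15 (SE 0.17, 95% interval -0.50 to 0.20, edgeR adjusted p = 0.698).

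Mmp15, or MT2-MMP, is a transmembrane relative of Mmp14 at 95352337 to 95374293 of chromosome 8. The exon reads were 202, 255 and 284 in sham and 166, 177 and 263 in ONC. In RPKM, ONC replicates 1 and 2 were below all sham samples and ONC replicate 3 lay among the sham samples, so that the groups overlapped. The RPKM was 2.42 ± 0.335 (SD, n = 3) in sham and 1.85 ± 0.450 (SD, n = 3) in ONC. Its log2 fold change of -0.51 (SE 0.18, 95% interval -0.88 to -0.14) did not pass the test after adjustment (edgeR adjusted p = 0.131). The single samples decided this: without ONC replicate 3 the log2 fold change was -0.73 (edgeR adjusted p = 0.0475), and without sham replicate 1 it was -0.64 (edgeR adjusted p = 0.0834), both past the rule.

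Mmp24, or MT5-MMP, is the neural membrane-type enzyme, which cleaves N-cadherin and amyloid precursor protein, and lies on chromosome 2 at 155775344 to 155818366. The exon reads were 536, 629 and 619 in sham and 740, 548 and 704 in ONC. In RPKM, ONC replicate 2 was below all sham samples and ONC replicates 1 and 3 were above all of them, so the groups overlapped. The mean RPKM was 5.80 ± 0.348 in sham and 6.07 ± 0.863 in ONC (SD, n = 3 each). The log2 fold change was -0.05 (SE 0.12, 95% interval -0.30 to 0.19, edgeR adjusted p = 0.858), and its sign turned to 0.067 on the RPKM scale. Between 69.0% and 74.2% of its exon reads were counted as unique, and the gene overlaps BC029722 in the files, so that part of its level is uncertain.

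Among the inhibitors, Timp2 was by far the most abundant. Timp2 inhibits most MMPs and in complex with Mmp14 also serves to activate proMmp2, and it lies on chromosome 11 at 118301061 to 118355411. Its exon reads were 1618, 1534 and 1479 in sham and 1909, 1811 and 1836 in ONC. The RPKM was 19.431, 17.679 and 16.683 in sham and 20.826, 20.091 and 19.541 in ONC. On the RPKM scale each ONC sample was above each sham sample, but after TMM scaling the groups overlapped. In the fit, Timp2 had a log2 fold change of 0.05 (SE 0.07, edgeR adjusted p = 0.778), and the 95% interval of -0.10 to 0.19 lies within a 1.5-fold change in either direction.

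Timp3 is the inhibitor bound to the extracellular matrix, abundant in Bruch's membrane under the pigment epithelium, and it also inhibits ADAM17. It lies on chromosome 10 at 86300412 to 86349505, inside the span of the synapsin gene Syn3. The exon reads were 653, 667 and 581 in sham and 621, 742 and 650 in ONC. Samples of the groups were interleaved, with a mean RPKM of 5.70 ± 0.544 in sham and 5.65 ± 0.621 in ONC (SD, n = 3 each). In the fit, Timp3 had a log2 fold change of -0.13 (SE 0.10, 95% interval -0.33 to 0.07, edgeR adjusted p = 0.527). Its intron reads were few, 13, 11 and 13 in sham and 10, 7 and 8 in ONC, and scaled to gene reads all ONC samples were below all sham samples (p = 0.1 by the exact permutation test, as low as it can go). Only 16.6% to 21.9% of its exon reads were counted as unique, so its level is uncertain.

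Timp1, the inducible inhibitor of most secreted MMPs, lies on the X chromosome at 20870166 to 20874737, within the span of Syn1. It was near the limit of detection, with 6, 5 and 4 exon reads in sham and 5, 10 and 14 in ONC. ONC replicates 2 and 3 were above all sham samples and ONC replicate 1 lay among them. The mean RPKM was 0.237 ± 0.0545 in sham and 0.426 ± 0.193 in ONC (SD, n = 3 each). The log2 fold change of 0.72 (SE 0.74) did not pass the test (edgeR adjusted p = 0.676), and its 95% interval of -0.83 to 2.27 leaves room for a fall as well as for a rise of several fold at this depth.

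**Figure D2:**
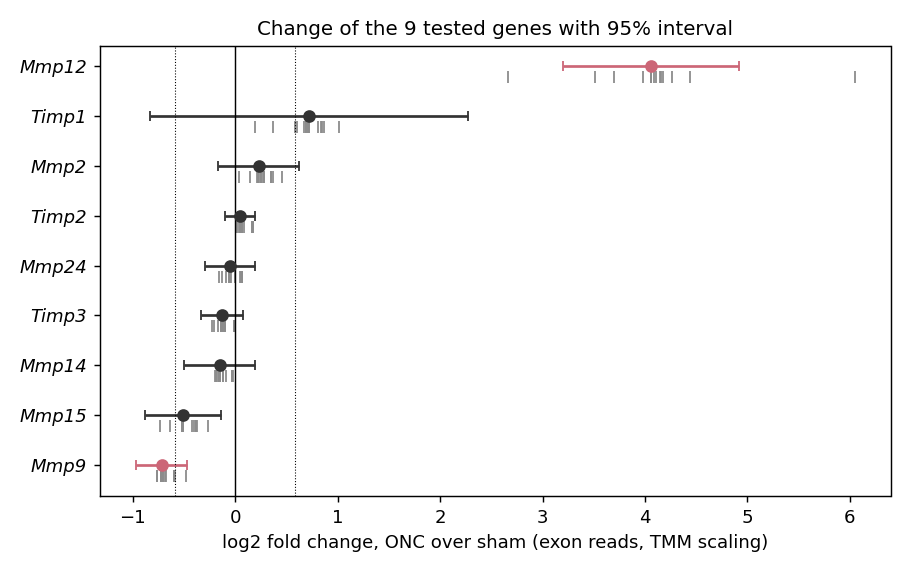
log2 fold change of ONC over sham for the 9 tested genes from edgeR on TMM-scaled exon reads, with 95% intervals (whiskers). Red marks the 2 genes called (Mmp12 at 4.06 and Mmp9 at -0.72), short grey ticks below each point are the values under the alternative settings and samples left out, and dotted lines mark a 1.5-fold change. The ticks of Mmp12 reach from 2.66 to 6.05, all far above 0.

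The order of the levels changed at Mmp12 and Mmp9. In sham, Timp2 had the highest RPKM, followed by Mmp24, Timp3 and Mmp9, whose neighbours in this order overlapped, then by Mmp14, Mmp15 and Mmp2, which also overlapped, and then by Mmp12 and Timp1, which overlapped too. The mean of Mmp12 was above that of Timp1 through sham replicate 1, and in the other sham samples Mmp12 was below Timp1. In ONC, Mmp12 stood directly below Timp2 and above Mmp24 in every sample, while Mmp9 stood below Mmp24 and Timp3 and above Mmp2, Mmp14 and Mmp15. The neighbours Mmp24 and Timp3, and likewise Mmp2, Mmp14 and Mmp15, again overlapped in ONC. Timp1 was above only Mmp3, which had no reads.

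Added up, the 7 Mmp genes reached an RPKM of 19.9, 18.2 and 18.4 in the sham samples and 24.4, 24.95 and 24.1 in the ONC samples. The 3 Timp genes reached 25.8, 23.9 and 21.9 in sham and 26.3, 26.9 and 25.5 in ONC. Every ONC sum of the Mmp genes was above every sham sum, whereas the Timp sums overlapped. Mmp12 took 5.46%, 0.253% and 0.865% of the Mmp sum in sham and 29.5%, 34.8% and 29.5% in ONC. The ratio of the Timp sum to the Mmp sum was 1.30, 1.31 and 1.19 in sham and 1.08, 1.08 and 1.06 in ONC. Both the higher Mmp sum and the lower ratio rest on Mmp12 alone. With Mmp12 left out, each ONC sum of the Mmp genes was below each sham sum, and each ONC ratio was above each sham ratio. The sums are on the RPKM scale, while the shares and the ratio do not depend on how samples are scaled, and none of them was tested. Timp2 made up 74.1% to 79.2% of the Timp sum in every sample.

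**Figure D3:**
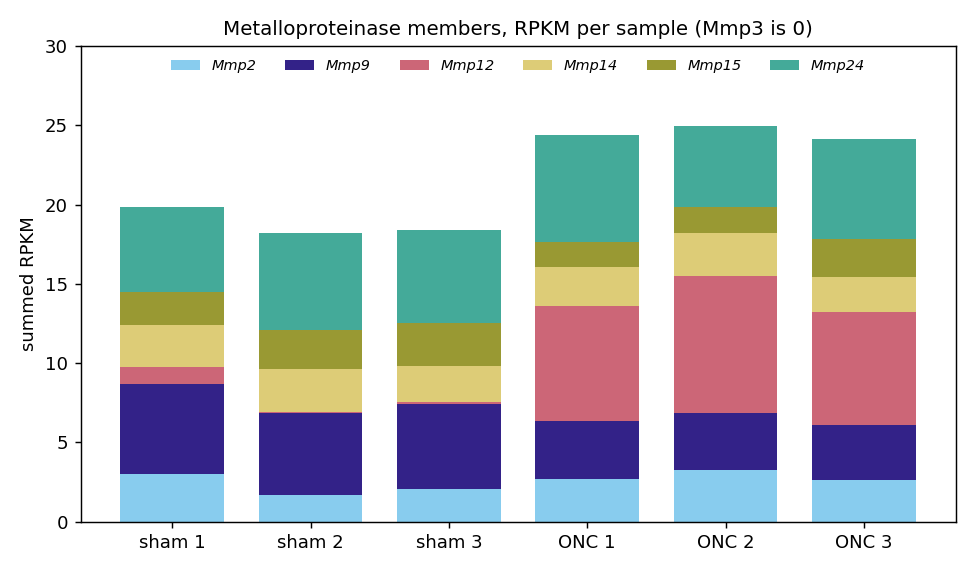
Summed RPKM of the Mmp genes in each sample (bars, linear axis from 0), split by gene. The sum is 18.2 to 19.9 in sham and 24.1 to 24.95 in ONC, and the red Mmp12 segment takes 29.5% to 34.8% of each ONC bar.

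Of 23 tested genes of related proteases and inhibitors, 0 were called by edgeR, where 1.66% of all genes were. Of 16 other Mmp genes, 5 passed the expression filter, and 0 reached an adjusted p under 0.1. Mmp17, a GPI-anchored enzyme, had a log2 fold change of 0.03 (edgeR adjusted p = 0.937), Mmp16, a membrane-type enzyme, had -0.49 (edgeR adjusted p = 0.255), and Mmp11, or stromelysin-3, had 0.90 (edgeR adjusted p = 0.249). The largest value of these 5 was that of Mmp19, singled out after its values were seen, with 17, 12 and 14 exon reads in sham and 42, 22 and 37 in ONC, no overlap between groups and a log2 fold change of 1.01 (edgeR adjusted p = 0.280). Reck, a membrane-anchored MMP inhibitor, was at 0.24 (edgeR adjusted p = 0.328), and Timp4 had at most 7 exon reads per sample. Of the ADAM sheddases 9 of 12 were tested and of the ADAMTS proteases 8 of 19, and these showed no call either. At an adjusted p under 0.1 without regard to fold change, which 6.09% of all genes reached, 2 ADAM genes were lower (Adam22 at -0.32 and Adam23 at -0.38) and 1 ADAMTS gene was higher (Adamts1 at 0.46), in log2 fold change. On the TMM scale the groups did not overlap for Mmp19, Mmp11 and Reck, higher in ONC, and for Adam22 and Adam23, lower in ONC. This is to be read beside 21.8% of all genes.

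Among 6 tested genes listed as activators, which take part in the activation or induction of MMPs directly or indirectly, 1 was called, where 1.66% of all genes were. Plat, tissue plasminogen activator, which turns plasminogen into plasmin, rose from an RPKM of 3.18 ± 0.303 to 7.18 ± 0.238 (SD, n = 3 each), with a log2 fold change of 1.06 (SE 0.13, edgeR adjusted p = 2.14e-05). Of 20 tested matrix genes, many of them MMP substrates, 1 was called, again beside 1.66% of all genes. Spp1, osteopontin, a secreted adhesion protein that MMPs cleave, rose from 9.94 ± 2.13 to 17.2 ± 3.74 (SD, n = 3 each), with a log2 fold change of 0.67 (SE 0.14, edgeR adjusted p = 0.00772). None of the 4 tested surface partners was called, a list too short to compare with that share. Cd63, the tetraspanin that binds Timp1, had a log2 fold change of 0.33 (edgeR adjusted p = 0.0244). An adjusted p under 0.1 with any fold change was reached by 6.09% of all genes. The call of Spp1 was lost without sham replicate 2 or without ONC replicate 2.

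Markers of cells that could carry these transcripts were read beside them. Of 15 tested microglia and macrophage markers, 4 were called higher (Itgam, Cd68, C1qa and C1qb), 14 had a log2 fold change above 0, and the median was 0.57. The edgeR adjusted p was 0.0903 for Itgam, 0.0912 for Cd68 and 0.0931 for C1qa, near the threshold of 0.1, and 0.00633 for C1qb. C1qa passed the fold change threshold at 1.501, and the groups of Cd68 overlapped on the TMM scale. Over all genes tested, 0.827% were called higher and 52.3% had a log2 fold change above 0. Of the marker calls only C1qb remained without sham replicate 2, without ONC replicate 2 or without ONC replicate 3. Without sham replicate 1 the call of C1qa was lost. Without sham replicate 3 those of Cd68 and Itgam were lost and Ctss was added. Without ONC replicate 1 that of Itgam was lost, and C1qc and Tyrobp were added. With the replicate number as a block 2 markers were called, and 9 were called with RPKM scaling. Their summed RPKM was 31.8 to 34.3 in sham and 52.7 to 61.7 in ONC, a smaller relative gain than that of Mmp12. The marker sum of sham replicate 1, 34.3, was close to those of the other sham samples, 31.8 and 33.8, but single markers differed. Sham replicate 1 was the highest sham sample for 7 of 15 markers and replicates 2 and 3 for 5 and 3. The part of these cells in the Mmp12 and Mmp9 results was not tested. Of 8 neutrophil markers, 3 were tested and 0 were called, Ngp and Mpo had 0 reads in all samples, and their summed RPKM overlapped between groups (2.31 to 4.63 in sham and 1.57 to 9.17 in ONC). None of the lists for endothelial and mural cells, Müller glia and astrocytes, pigment epithelium, or fibroblasts and sclera had a called gene. These counts and that of the neutrophil markers are to be read beside 1.66% of all genes called in either direction. The pigment epithelium sum ran from 51.0 to 78.8 across samples of both groups.

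**Figure D4:**
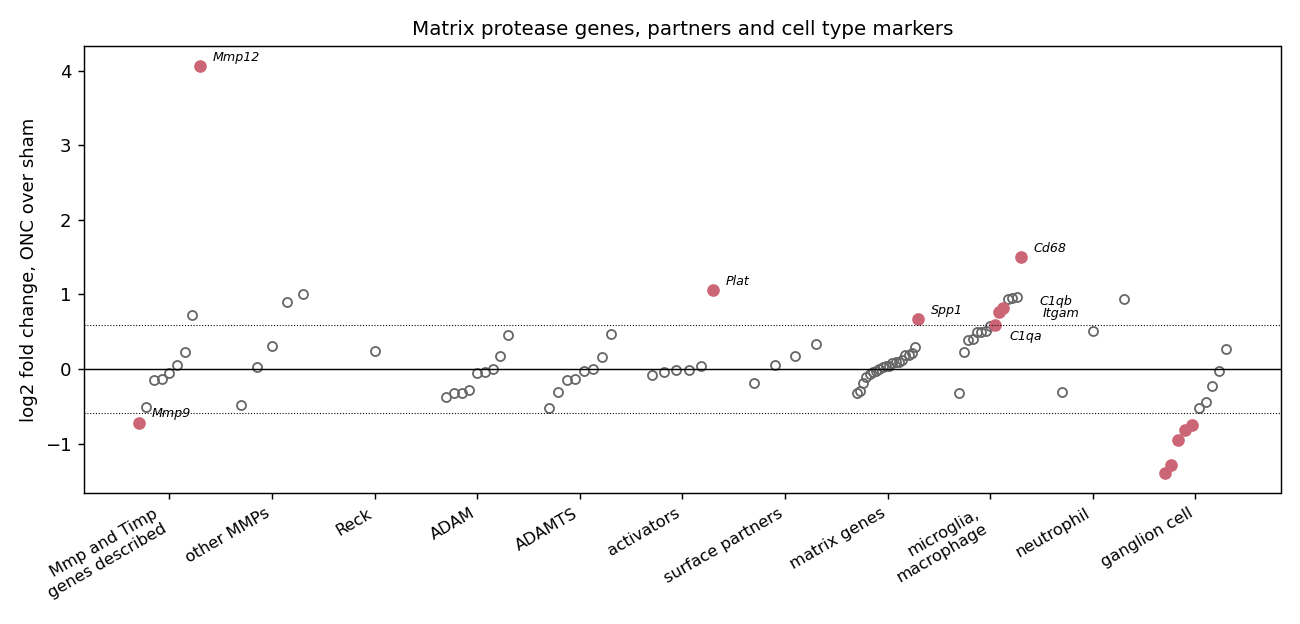
log2 fold change of ONC over sham for each tested gene of the Mmp and Timp set, related protease families, their partners and cell type markers (one point per gene, ordered by value within a list). Filled red points were called (edgeR adjusted p under 0.1 and fold change above 1.5, dotted lines). Outside the ganglion cell markers, called genes are Mmp12, Mmp9, Plat, Spp1, Cd68, C1qb, Itgam and C1qa.

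The genes whose pattern over the 6 samples was most like that of Mmp12, by Pearson's r of log2(RPKM + 0.1), were Sprr1a, Clic1, Rbbp8, Cyp4v3 and Tnfrsf12a, with r from 0.996 to 0.999 over samples that share their libraries. Sprr1a, a small proline-rich protein known from injured neurons, had 24, 0 and 3 exon reads in sham and 236, 245 and 223 in ONC. Tnfrsf12a, the TWEAK receptor, had an RPKM of 8.20, 3.89 and 4.62 in sham and 22.2, 23.7 and 20.6 in ONC. Sham replicate 1 was the highest sham sample for each of these genes, as for Mmp12. They were picked by their likeness to Mmp12 over these same samples, so this is no separate result. The same held for 74 of the 113 genes called higher in ONC. Rbbp8, a DNA repair protein, was among the 5 although it did not pass the test (log2 fold change 0.35, edgeR adjusted p = 0.3997). For Mmp12 itself, sham replicate 1 lay 13.0% of the way from the other sham samples to the ONC mean.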

How the data were processed

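RNA-seq covered whole retinas in 3 ONC and 3 sham samples, and each sample was a mix of RNA from 6 retinas. Sample labels gave groups and replicate numbers. Reads were mapped by the authors in CLC Genomics Workbench, and the deposited tables hold, for each sample, raw counts of exon and whole-gene reads, where an intact pair counts as 1. The deposited RPKM values divide exon reads by exon length and by the total of gene reads including introns, so a sample with more intron reads has lower RPKM. The methods name mm9, but the gene positions match GRCm38. Group means in the tables were not used.

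Genes entered the fit if their mean RPKM exceeded 0.3 in sham or ONC (13670 genes). Total exon reads were fitted with edgeR 4.0.16 (TMM, glmQLFit and glmQLFTest, condition only). Standard errors are the log2 fold change divided by the square root of F. Alternatives used limma 3.58.1 on log2(RPKM + 0.1) or log2(RPKM + 1), DESeq2 1.42.0, other scalings and filters, and samples left out. The intron reads and the position of single sham samples were looked at after seeing the data. The procedure was run on data simulated with the same dispersion for every gene. This does not cover a gene whose pools differ as those of Mmp12 did in sham. The genes named by rule are the 10 genes, called genes of the related lists, the 3 other Mmp genes of highest RPKM, called markers and the 5 genes most like Mmp12. Others were named outside this rule with their values known, such as Mmp8, Mmp13, Mmp19, Reck, Timp4, Cd63, Adam22, Adam23, Adamts1, Ngp and Mpo. The genes and lists were chosen with earlier results of these data known. Labels do not say that equal replicate numbers mark paired samples. The edgeR p-values and standard errors rest on the spread between pools, moderated over all genes tested, and not on each gene's own spread alone.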

Additional observations from a re-analysis of the deposited data

Results flagged for a closer look

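Intron reads, which are not part of the exon reads fitted, were above the sham level in ONC for Mmp12 and Mmp2. For Mmp12 they summed to 71 over the ONC samples and to 0 over the sham samples. For Mmp2 they summed to 727 over the ONC samples and to 524 over the sham samples. The mean intron share of the reads of Mmp2 was alike in the groups, 52.2% in sham and 52.2% in ONC. With intron reads scaled to the gene reads of each sample, the groups did not overlap for either gene. Each exact permutation test gave p = 0.1, the smallest value 3 against 3 samples allow. Both intron results were noticed in a look at reads outside exons that was added after seeing the data. For Timp3 the groups did not overlap in the other direction, with 25 intron reads in ONC and 37 in sham and the same p = 0.1 in the exact permutation test. Of all 22033 genes with intron reads, 14.3% had groups that did not overlap. With exon and intron reads fitted together, Mmp12 had a log2 fold change of 4.15 (edgeR adjusted p = 0.000647) and Mmp2 had 0.28 (edgeR adjusted p = 0.282). No cause was tested.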

How the results depend on the processing

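Mmp12 stayed called in all 17 alternatives, with log2 fold changes from 2.66 to 6.05 (3.51 to 6.05 with 1 sample left out) and adjusted p up to 0.0607. Of the 9 tested genes 2 were called, and 1 (Mmp12) with limma on log2(RPKM + 0.1), limma on log2(RPKM + 1) and glmTreat, and 2 to 3 with 1 sample left out, Mmp15 being the gene added. Mmp9 kept its direction in all 17. The log2 fold change of Mmp24 was above 0 with RPKM scaling (0.067), limma (0.057 and 0.051 for the pseudocounts of 0.1 and 1), the per-gene test on RPKM (0.067), without ONC replicate 2 (0.066) and without sham replicate 3 (0.0002), with a range of -0.16 to 0.07 when 1 sample was left out.

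Of all genes 227 were called, 350 with RPKM scaling (263 higher and 87 lower, against 113 and 114), 349 with total gene reads (113 higher and 236 lower), 147 with limma on log2(RPKM + 1), 51 with glmTreat and 833 with no fold change threshold. With 1 sample left out it was 153 to 353, the most without ONC replicate 1. Among the other protease and inhibitor genes 0 were called, and 1 with RPKM scaling (Adamts1), limma on log2(RPKM + 0.1) (Mmp11) and total gene reads (Mmp16), 3 with no fold change threshold, and 0 to 1 with 1 sample left out (Adamts1 without sham replicate 3). Among activators, partners and substrates 2 were called, and 1 with limma on log2(RPKM + 0.1), the per-gene test on RPKM and glmTreat, and 1 to 2 with 1 sample left out. Of the cell type markers 9 were called, 14 with RPKM scaling, 16 with no fold change threshold, 3 with glmTreat, and 6 to 11 with 1 sample left out. The cause of these shifts was not tested.

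With the replicate number as a block, 222 genes and 2 of the 9 genes were called. Samples of equal number did not deviate together (correlations -0.07, -0.02 and 0.00), and 0 of 6 samples correlated best with their own number, so the samples were not treated as paired. Timp1, at 4 to 14 reads, and the sham level of Mmp12 are limited by depth.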
